A study of Xenopus laevis with 54 samples.

Results

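The genes described here encode the proteins of the cytosolic ribosome in the frog Xenopus laevis, followed in RNA of embryos at 5 to 9 hours post fertilization (hpf) and of unfertilized eggs. They were taken by name, as every row whose name begins with rpl followed by a digit or p, or with rps followed by a digit, leaving out the kinases named rps6k. This gave 144 rows of 50489 in the table, under 80 gene names. Of these rows, 57 encode proteins of the small subunit, 75 proteins of the large subunit, 5 proteins of the P stalk and 6 paralogs (rpl3l, rpl7l1, rpl22l1 and rps27l). The last row, rps19bp1.L, matches the name rule but encodes a nucleolar protein that binds Rps19 in human cells and is not part of the ribosome. The rule misses some genes of ribosomal proteins with other names, such as rpsa and fau.

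The cytosolic ribosome is built from a small subunit that decodes mRNA and a large subunit that forms peptide bonds, each with its own set of proteins made in nearly equal numbers. In vertebrates the mRNAs of these proteins begin with a stretch of pyrimidines, the 5′ terminal oligopyrimidine tract, through which their translation follows growth signals. The Xenopus egg carries a large store of finished ribosomes, on which the early embryo lives before it makes its own ribosomal RNA in quantity. Xenopus laevis is allotetraploid and keeps an L and an S copy (homeologs) of many genes. Of the 80 names, 58 have rows for both copies, 17 only for L and 5 only for S.

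All frogs were wildtype. At the 1-cell stage each embryo received an injection of 10 nl of EU (5-ethynyl uridine, which is built into newly made RNA) at 50 mM, for about 0.5 mM inside the cell, and it then grew to a blastula in dilute saline at room temperature. EU-labelled RNA was tagged with biotin and captured on streptavidin, which gave bead RNA (captured) and flowthrough RNA (not captured). Uncaptured input was sequenced as total RNA. Bead RNA is meant to hold labelled RNA made after injection, and how much unlabelled RNA stayed on the beads was not tested. Injected embryos gave 20 bead libraries, 20 flowthrough libraries and 12 of total RNA, and unfertilized eggs, for which the labels give no injection, gave 2 of total RNA. Bead and flowthrough RNA had 4 replicates at each of 5, 6, 7, 8 and 9 hpf, and total RNA had 4 at 5 hpf and 2 at each later time. Replicates 1 and 2 belong to experiment 1, and replicates 3 and 4 and both eggs to experiment 2. The replicates are separate clutches, according to the series' design text. In experiment 1 the same 2 clutches gave all times and fractions, while the text does not say whether the clutches for total RNA at 5 hpf in experiment 2 were those for bead and flowthrough RNA. Eggs and embryos differ in fertilization, injection and hours of development, which cannot be told apart.

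Values are read estimates that the authors scaled with DESeq2 and rounded, called normalised values below. They are not counts, so the depth of the libraries is unknown, and they are not per unit of transcript length, so values of different genes or of L and S copies are not numbers of molecules. The counting could also divide reads between near-identical copies, which leaves the split between L and S, and between the repeated rows of rps12.L, rps24.L, rpl35a.S and rpl37.S, uncertain. In bulk RNA of whole embryos, fewer cells with an RNA and less of it per cell cannot be told apart. Bead libraries of experiment 2 stood apart: 12814 to 18990 genes were above 0 in them, against 23212 to 28348 in bead libraries of experiment 1 and 21965 to 25064 in flowthrough. Between 15 and 82 ribosomal protein rows were listed at 0 in each bead library of experiment 2, against 5 to 8 in experiment 1. Most bead results are therefore also given by experiment. In eggs and in total RNA at 5 and 9 hpf, 17 of 18 egg marker rows and 0 of 14 blood marker rows averaged at least 10. Of 9 follicle marker rows 1 did so in eggs, 1 at 5 hpf and 2 at 9 hpf. Their sums were 7 to 46 in eggs, 42 to 182 at 5 hpf and 92 to 203 at 9 hpf. Of 20 zygotic marker rows 0 did so in eggs and at 5 hpf, and 19 at 9 hpf.

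In eggs the ribosomal protein rows were abundant and unequal. Of the 139 rows tested in egg and total RNA, 132 averaged at least 100 in eggs, as did 58.0% of the 21534 genes tested, and their median was 402 against 148. The quartiles over the 144 rows were 190.0 and 662, and the highest mean was 1259. No row dominated: the 10 highest held 17.5% of the summed value, and 36 rows were needed for 50% of it. Among the 5 highest rows were rpl22.L at 1384 and 1134 in the 2 egg libraries, rpl3.L at 1178 and 1339, rpl23a.S at 1083 and 1233, and rpl11.L at 967 and 1274. Rpl22 is an RNA-binding protein of the large subunit, Rpl3 lies near the peptidyl transferase centre and Rpl11 binds 5S rRNA together with Rpl5. These 4 rows overlapped one another, so their order is not resolved. The small and large subunit rows had medians of 445 and 392.

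Some rows were low or silent. The lowest tested rows were rpl35a.S_gene40692 at 19 and 0, rps27l.S at 15 and 18, rpl22l1.L at 17 and 17, rps12.L_gene46668 at 45 and 62, and rps9.S at 109 and 60. Both rows of rpl3l, the paralog that replaces Rpl3 in mammalian muscle, were listed at 0 in eggs and had no value of 10 or more in total RNA. The same held for rps24.L_gene10788, rpl35a.S_gene22290 and rpl37.S_gene27418, each of which has a twin row of the same name with reads. These 5 rows failed the filter on low values. Among the other paralogs, rpl22l1.L stood far below rpl22.L, and rps27l.L at 120 and 85 below rps27.L at 695 and 894. The row rpl7l1.L, whose human counterpart is a factor of ribosome assembly, was at 1087 and 1003 in eggs, within the range of the core proteins.

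The proteins of the P stalk, which recruits translation factors to the ribosome, had low to middle values in eggs: 313 and 302 for rplp1.L, 137 and 148 for rplp0.L, 109 and 179 for rplp0.S, 120 and 160 for rplp2.S, and 80 and 114 for rplp2.L. The partners in the 5S particle were high in both copies, with rpl5.L at 1074 and 1159 and rpl11.S at 953 and 1089. Rps6, the substrate of the S6 kinases, had 181 and 224 from its L row. Rps27a, which is made as a fusion with ubiquitin, had 1040 and 1192 from its L row. Other well-known proteins had values across this range: rpl10.L was at 217 and 249, rpl38.S at 300 and 217, rps19.S at 304 and 325, rps14.L at 200 and 250, and rps4x.L at 881 and 831.

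Most ribosomal protein rows had lower values in the embryo at 5 hpf than in the egg. The 144 rows summed to 0.467%, 0.665%, 0.463% and 0.588% of the column total in total RNA at 5 hpf, against 0.764% and 0.789% in eggs. All 4 embryo libraries were below both egg libraries. Small and large subunit rows moved alike: they made up 0.219% ± 0.038 and 0.31% ± 0.0586 of the total at 5 hpf (SD, n = 4), against 0.303% ± 0.00778 and 0.454% ± 0.012 in eggs (SD, n = 2).

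**Figure D1:**
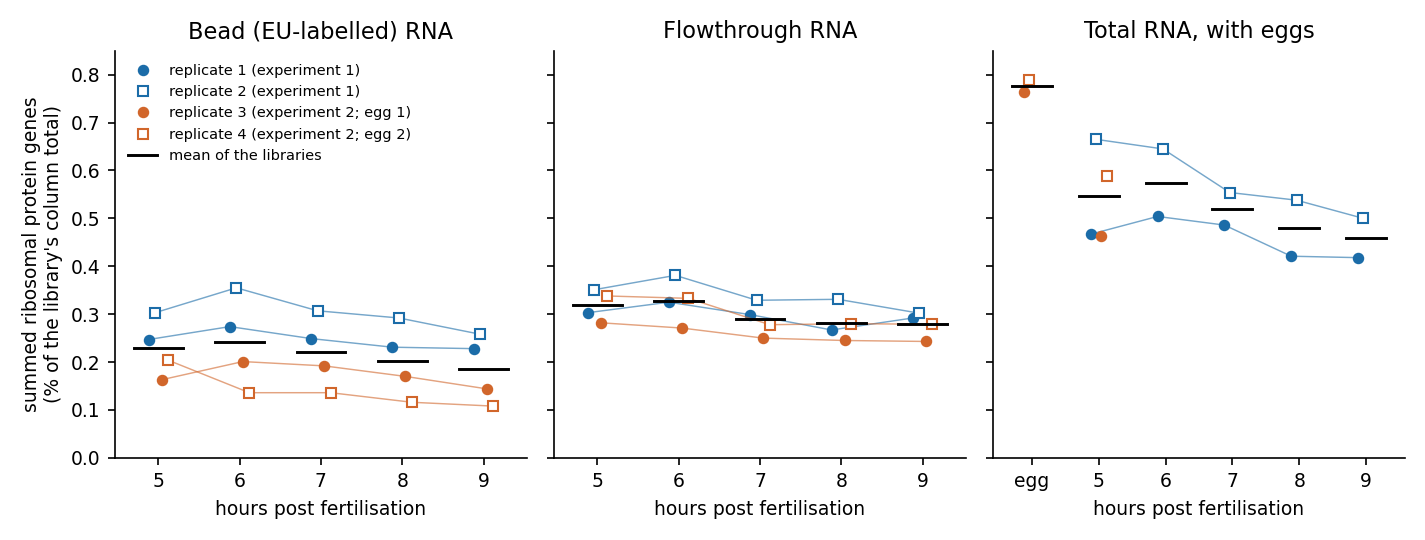
Summed normalised value of the 144 ribosomal protein rows as a percent of each library's column total (vertical axis, starting at 0), by hours post fertilisation, in bead, flowthrough and total RNA, with eggs at the left of the total RNA panel. Symbols are libraries, thin lines join libraries of 1 replicate and black bars are means; both eggs lie above all 12 total RNA libraries, and the orange bead libraries of experiment 2 lie below the blue ones of experiment 1.

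The fit across all genes called few single rows. With limma-trend and Benjamini-Hochberg adjustment over 21534 genes, calls required an adjusted p below 0.05 together with a 2-fold change or more. Of 139 rows 4 fell and 0 rose at 5 hpf against eggs, where 0.283% of all genes fell and 0.237% rose. At any size 7 fell (0.409% of all genes). The median change of the members was -0.66 on the log2 scale, with 135 of 139 below 0, while that of all genes was -0.03 with 54.2% below 0. Unadjusted p was under 0.05 for 72 rows. Counts of rows or pairs at this limit, here and below, have no share of all genes beside them. They are therefore not read as a change of the set. For 81 of 139 rows all 4 embryo libraries were below both eggs (16.0% of all genes), and for 1 row all 4 were above (9.41% of all genes). Since eggs came from experiment 2, the term for experiment makes each change rest on replicates 3 and 4 at 5 hpf, and experiment 1 adds to the estimate of spread. In that estimate the 5 times of a clutch of experiment 1 counted as separate libraries. The adjusted p-values therefore do not fully measure the spread between clutches. Experiment 2 fitted alone rests on the same eggs and the same replicates 3 and 4, so its median of -0.65 is no separate check. It called 0 of 138 rows lower, as it did for all 18812 genes, with 85 rows at an unadjusted p under 0.05. Leaving out any 1 of the 6 libraries left 0 to 2 rows called, so the single calls rest on each library, while the median stayed between -0.87 and -0.44.

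The rows called belong to the small subunit and the P stalk, and 3 of the 4 are given here. Rps2, a protein at the mRNA entry site of the small subunit, had the largest fall: rps2.L was at 73, 167, 97 and 159 in total RNA at 5 hpf, against 693 and 624 in eggs. Its 4 embryo values lay far below both eggs, and the log2 change was -2.40 ± 0.39 (SE; adjusted p = 0.0282, limma). Its total RNA values at 9 hpf, 119 and 177, lay near those at 5 hpf. An S copy of rps2 was not analysed here. The stalk row rplp2.S was at 78, 80, 61 and 56 at 5 hpf, against 120 and 160 in eggs (-1.23 ± 0.23, adjusted p = 0.0458). The row rps9, listed without a copy letter beside rps9.L and rps9.S, was at 130, 174, 86 and 112 at 5 hpf, against 212 and 243 in eggs (-1.20 ± 0.23, adjusted p = 0.0437). In each of these rows the groups did not overlap. Rpl29.S, rpl17.L and rps3.L also fell by less than 2-fold, by 0.92, 0.81 and 0.81 on the log2 scale.

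The few rows above 0 were small subunit rows, and none of them passed the test. The highest change was 0.39 ± 0.33 (SE) for rps12.S, at 168, 347, 192 and 171 at 5 hpf, against 161 and 118 in eggs. Rps14.L followed with 0.19 ± 0.25, at 223, 369, 231 and 281 at 5 hpf, against 200 and 250 in eggs, where the groups overlapped. By class, 73 of 73 large subunit rows, 5 of 5 stalk rows, 4 of 4 paralogs and 52 of 56 small subunit rows were below 0, with medians of -0.64, -0.98, -0.69 and -0.64. L rows and S rows had medians of -0.66 and -0.64. Rows that were high in eggs lay on both sides of the median, with -0.31 for rpl22.L, -0.45 for rpl3.L, -0.88 for rpl11.L and -1.07 for rpl23a.S, and none of these was called.

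**Figure D2:**
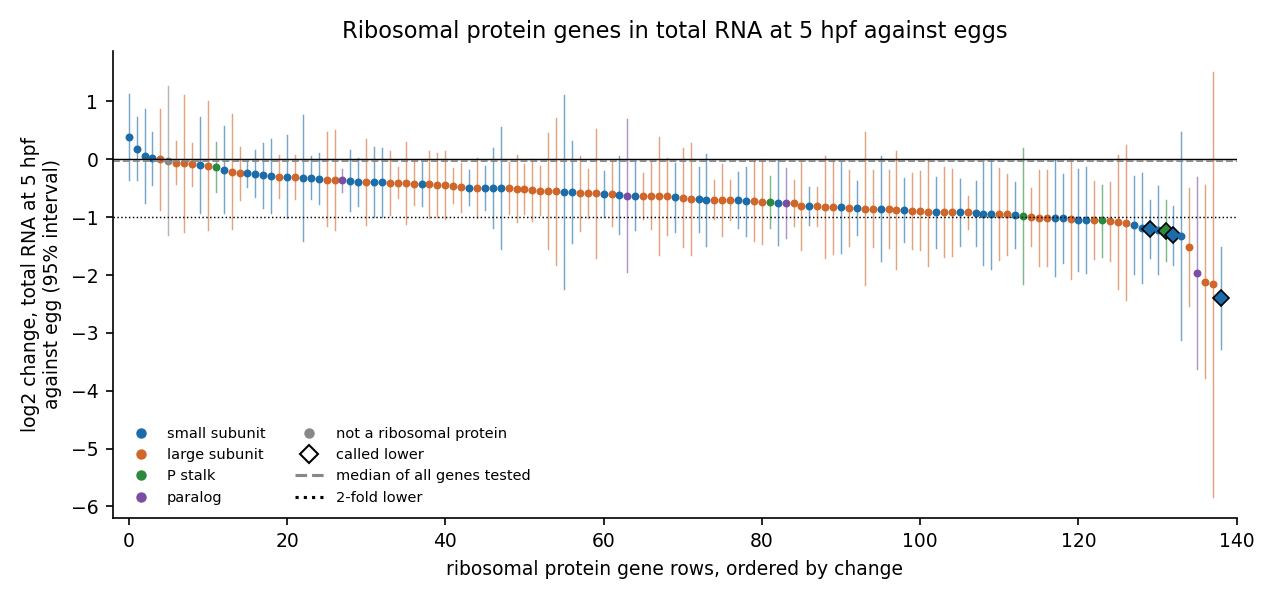
Log2 change of each of the 139 tested rows in total RNA at 5 hpf against eggs (vertical axis, with 95% intervals from the limma fit), ordered from highest to lowest and coloured by class. The 4 diamonds are the rows called lower, the dotted line marks 2-fold lower and the dashed line the median of all genes tested, -0.03; 135 of 139 points lie below 0.

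Genes that serve the ribosome in other ways had medians nearer to 0 between egg and 5 hpf, and 0 of their rows were called in the 5 lists given next. The median log2 change was -0.08 over 110 tested rows of ribosome assembly factors, -0.33 over 11 of RNA polymerase I, -0.14 over 22 of translation factors of the pyrimidine-tract class, -0.01 over 19 of regulators of these mRNAs and -0.15 over 5 of the p53 list. Unadjusted p was under 0.05 for 12, 4, 5, 1 and 1 of them. Nuclear genes of the respiratory chain had a median of -0.49 with 3 of 145 called lower, and mitochondrial ribosomal proteins -0.21 with 1 of 99. No test set these lists against each other.

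Copy use in eggs was balanced over the ribosomal protein pairs as a whole and varied from pair to pair. Over the 55 pairs of same-name rows that passed the filter, the L copy held 53.6% of the summed value in both egg libraries, and its median share was 53.4%, against 52.4% over 5174 pairs of all genes. The L copy was above 50% in both eggs for 28 pairs, the S copy for 19, and 8 pairs were mixed. Shares lay between 40% and 60% in both eggs for 26 pairs. A strong skew, 1 copy with at least 75% in both eggs, was seen toward L in 4 pairs (13.5% of all pairs) and toward S in 0 (9.68% of all pairs). These shares are not per length and rest on how the counting divided reads.

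The most L-skewed pair was rpl18, with an L share of 87.4% and 89.4% in eggs, and rps27l, rpl22, rps3 and rps16 followed. Rps27l is a low pair, with a summed value of 119 in eggs. The L share of rpl22 was 80.0% and 78.4%, that of rps3 81.8% and 75.8%, and that of rps16 72.7% and 73.2%, just under the limit. At the other end rpl30 had 29.0% and 24.9%, rpl34 29.9% and 29.1%, rps25 31.9% and 31.1%, rpl4 30.5% and 33.9%, and rps21 29.0% and 35.5%. The 2 egg libraries were close for most of these pairs and lay far apart for rps9, with 34.3% and 65.9%.

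**Figure D3:**
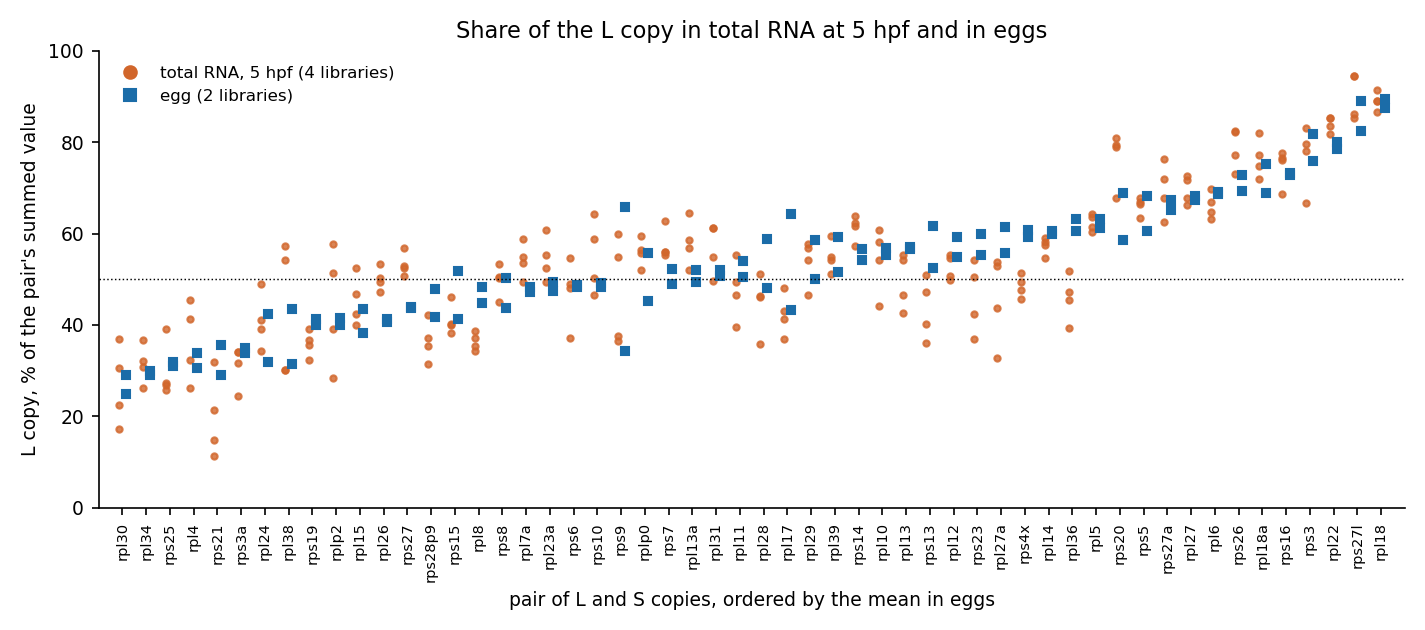
Share of the L copy in the summed normalised value of each of 54 of the 55 pairs (vertical axis, percent), ordered by the mean of eggs, with each library drawn as a point: orange circles for total RNA at 5 hpf, blue squares for eggs. Most pairs lie near 50%, rpl18 is highest at 87.4% and 89.4% in eggs, and the egg points of rps9 lie apart at 34.3% and 65.9%.

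The balance of copies was not detectably different at 5 hpf from that in eggs. A limma fit of log2(L + 1) minus log2(S + 1) called 0 of 55 pairs, where 0.0966% of all pairs moved toward L and 0.135% toward S, and 9 ribosomal pairs had an unadjusted p under 0.05. Rpl18 kept an L share of 86.6%, 89.1%, 89.1% and 91.5% at 5 hpf, and rpl22 one of 85.3%, 83.6%, 85.3% and 81.7%.

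From 5 to 9 hpf few ribosomal protein rows changed by 2-fold in total RNA, and with the clutch as a block more changed by less than that, in both directions. The summed share at 5, 6, 7, 8 and 9 hpf averaged 0.546%, 0.575%, 0.52%, 0.48% and 0.459%. The mean at 5 hpf takes in both experiments and the later ones experiment 1 only. From 5 to 9 hpf the share was 0.467%, 0.504%, 0.486%, 0.421% and 0.418% in replicate 1. In replicate 2 it was 0.665%, 0.645%, 0.554%, 0.538% and 0.5%. The summed value itself was 36778 at 5 hpf and 36637 at 9 hpf in replicate 1, and 53583 and 43356 in replicate 2. Column totals were 7869490 and 8757424 at these times in replicate 1, and 8058610 and 8668361 in replicate 2. The lower share in replicate 1 thus lay mostly in a larger total. At 9 against 5 hpf 1 of 139 rows fell and 0 rose (limma, adjusted p under 0.05 and at least 2-fold), where 2.0% of all genes fell and 6.25% rose, and 22 rows had an unadjusted p under 0.05. The median was -0.19, against 0.04 for all genes. It was 0.10 without replicate 2 at 5 hpf, so its direction rests on that library. Total RNA after 5 hpf exists only in experiment 1, so the change is that of 2 clutches. At any size 5 fell (4.73% of all genes) and 0 rose (7.32% of all genes). With the clutch as a block and eggs left out, 4 rows fell by at least 2-fold (3.46% of all genes) and 54 had an unadjusted p under 0.05. At any size 32 rows then fell (12.6% of all genes) and 10 rose (14.5% of all genes). Small subunit rows had a median of -0.01, large subunit rows -0.25 and stalk rows 0.30, a difference between classes that was not tested.

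The row called was rpl8.L, a large subunit protein near the peptidyl transferase centre. It was at 72, 63, 52, 49 and 39 from 5 to 9 hpf in replicate 1 and at 126, 94, 67, 91 and 31 in replicate 2. The log2 change at 9 against 5 hpf was -1.43 ± 0.36 (SE; adjusted p = 0.026, limma), and -1.43 ± 0.27 with the block (adjusted p = 5.06e-04). Without the block the call was lost when replicate 2 at 5 hpf, replicate 1 at 9 hpf or replicate 2 at 9 hpf was left out (adjusted p = 0.213, 0.0834 and 0.147) and in experiment 1 alone (adjusted p = 0.0653). The other 3 rows called with the block had their lowest value at 9 hpf in both clutches. Rpl29.L was at 322, 431, 288, 239 and 165 from 5 to 9 hpf in replicate 1 and at 615, 577, 422, 357 and 245 in replicate 2 (blocked change -1.14 ± 0.12, adjusted p = 9.39e-07; 0.0724 without the block). Rpl26.L was at 116, 117, 87, 63 and 45 in replicate 1 and at 194, 151, 150, 122 and 92 in replicate 2 (-1.21 ± 0.20, adjusted p = 1.01e-04; 0.128 without the block). The third was rps19bp1.L, the member that is not a ribosomal protein, at 304, 251, 229, 134 and 104 in replicate 1 and at 562, 487, 375, 361 and 224 in replicate 2 (-1.43 ± 0.15, adjusted p = 3.83e-07; 0.169 without the block). In each of these 4 rows the 9 hpf value lay below the 5 hpf value of the same clutch. The largest blocked rise was in rps15.L, a small subunit row, which was at 79, 80, 105, 103 and 162 from 5 to 9 hpf in replicate 1 and at 139, 160, 115, 165 and 195 in replicate 2 (0.76 ± 0.20, adjusted p = 0.00908; 0.30 without the block). The stalk row rplp0.S rose by 0.63 with the block, and rps15.S by 0.62.

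Copy balance in total RNA at 9 against 5 hpf was called for 0 of 55 pairs without the block, with 8 at an unadjusted p under 0.05, where 1.29% of all pairs moved toward L and 0.715% toward S. With the clutch as a block 2 pairs moved toward L (7.04% of all pairs) and 4 toward S (5.69% of all pairs). The clearest was rpl39, a short protein at the exit tunnel: its L share was 73.6% and 68.6% at 9 hpf, against 54.2%, 59.4%, 54.9% and 51.1% at 5 hpf (change of the log2 ratio 0.90 ± 0.19 SE, adjusted p = 0.00219, limma with block). Rps25 moved toward S, with L shares of 22.1% and 21.3% at 9 hpf, against 25.7%, 39.1%, 27.3% and 26.8% at 5 hpf (-0.76 ± 0.18, adjusted p = 0.00768 with block). Rps27a moved toward L by 0.51 and rpl23a toward S by -0.59.

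The 2 clutches of experiment 1 differed in ribosomal protein RNA at every time. In total RNA 32 of 139 rows were higher in all 5 libraries of replicate 2 than in all 5 of replicate 1 (10.2% of all genes), and 0 were lower in all (9.97% of all genes). Of these 32 rows, 10 were also higher in all 5 flowthrough libraries of replicate 2, which is 10 of 139 rows (5.85% of all genes). The clearest were rows of low level. Rps21.L was at 70, 73, 85, 79 and 79 from 5 to 9 hpf in replicate 2 and at 29, 20, 35, 38 and 34 in replicate 1. Rps9.L was at 112, 127, 98, 134 and 120 in replicate 2 and at 48, 52, 41, 41 and 59 in replicate 1. Rpl10a.S was at 137, 114, 120, 89 and 113 in replicate 2 and at 61, 57, 58, 47 and 48 in replicate 1. Libraries of 1 clutch share their parents and handling, so this describes 2 clutches and is no test between groups.

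**Figure D4:**
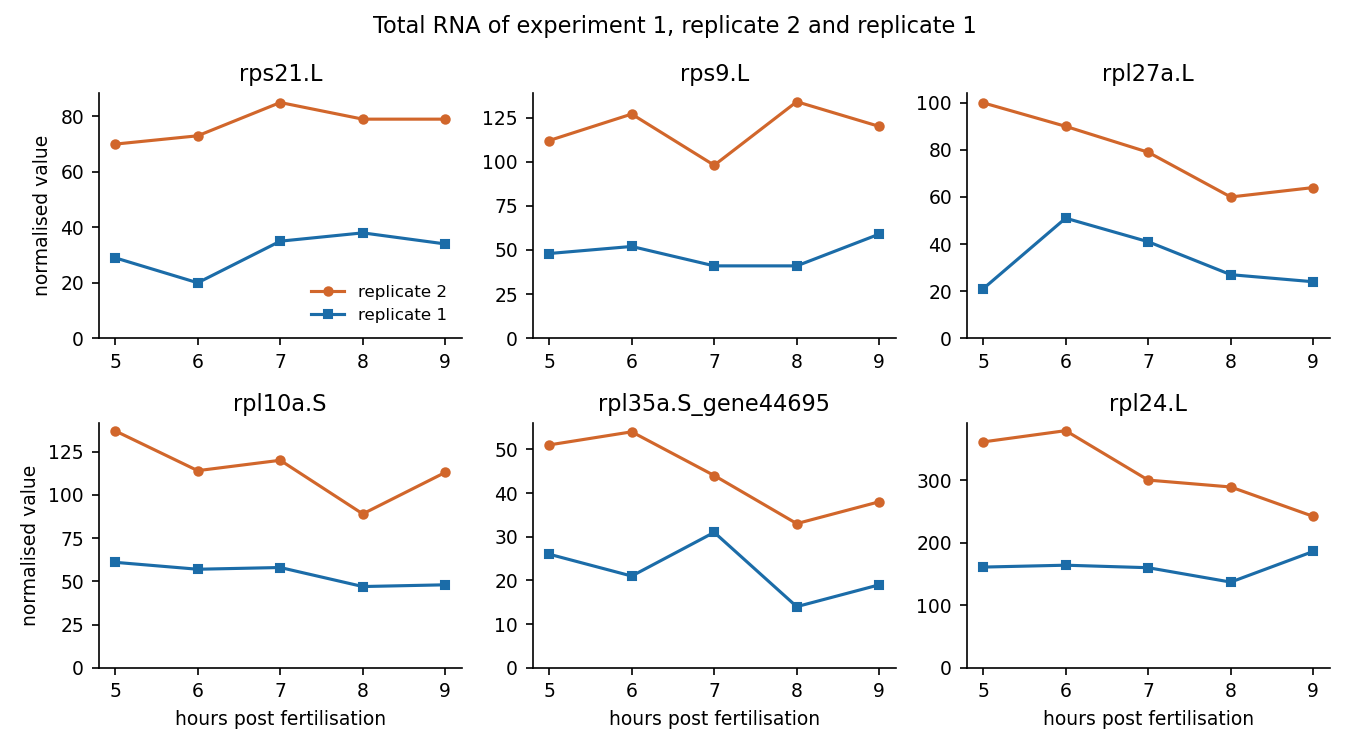
Normalised value by hours post fertilisation in total RNA of experiment 1 for the 6 rows with the largest ratio of replicate 2 to replicate 1 among the 32 rows without overlap. Each panel is 1 row with a vertical axis from 0, orange circles are replicate 2 and blue squares replicate 1; in all 6 panels the 5 orange values lie above the 5 blue ones.

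The L share of some ribosomal protein pairs did not overlap between the 2 clutches, in a percentage of pairs below that over all genes. The L share of rps9, a small subunit protein, was 59.9% to 67.8% over the 5 times in replicate 2 and 32.3% to 39.9% in replicate 1. It was 36.5% and 54.9% in replicates 3 and 4 at 5 hpf, and the 2 eggs spanned the same range. Rpl27a gave 53.8% to 59.4% in replicate 2 and 32.8% to 42.9% in replicate 1, and rpl4 gave 25.5% to 36.1% in replicate 2 and 45.5% to 54.6% in replicate 1. In all, 6 pairs had a higher and 3 a lower L share in replicate 2 at all times, of 55 pairs, while this held for 12.2% and 12.4% of all 5174 pairs.

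Ribosomal protein rows made up less of flowthrough RNA than of total RNA at 5 hpf. This comparison was added after the data were seen. The rows summed to 0.319% ± 0.0317 of the column total in flowthrough and 0.546% ± 0.0984 in total RNA at 5 hpf (SD, n = 4 each). Of 139 rows 47 fell (3.34% of all genes) and 0 rose (0.4% of all genes), with an unadjusted p under 0.05 for 104, and at any size 90 fell (13.9% of all genes). For 83 rows all 4 flowthrough libraries were below all 4 total RNA libraries (14.4% of all genes). The median was -0.81 for the members and -0.06 for all genes. The difference was present in each experiment: 38 rows fell in experiment 1 alone (1.59% of all genes) and 36 in experiment 2 alone (2.49% of all genes), with medians of -0.85 and -0.76. Bead RNA at 5 hpf also had a lower summed share than total RNA. In replicates 1 to 4 it was 0.247%, 0.303%, 0.163% and 0.204% on beads. Flowthrough had 0.303%, 0.351%, 0.282% and 0.338%, and total RNA 0.467%, 0.665%, 0.463% and 0.588%. Both the captured and the uncaptured part thus had lower shares than the input, and the cause was not tested.

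The largest difference was in rps19.L, whose human counterpart is mutated in Diamond-Blackfan anaemia. It was at 10, 26, 20 and 31 in flowthrough, against 85, 145, 91 and 155 in total RNA (log2 difference -2.46 ± 0.41 SE, adjusted p = 7.26e-05, limma). Its S copy did not differ in this way, with 198, 253, 154 and 235 in flowthrough, against 177, 261, 156 and 240 in total RNA. Rpl37.S_gene46418 was at 30, 63, 28 and 57 in flowthrough, against 160, 312, 145 and 220 in total RNA (-2.23 ± 0.37, adjusted p = 7.20e-05). Rps24.L_gene34335 was at 74, 118, 58 and 106 in flowthrough, against 268, 565, 295 and 456 in total RNA (-2.13 ± 0.38, adjusted p = 1.82e-04). Rpl13.L was at 122, 142, 115 and 113 in flowthrough, against 319, 568, 574 and 786 in total RNA (-2.12 ± 0.38, adjusted p = 2.11e-04). Rpl37.L and rps21.S differed by -1.89 and -1.84. In these 6 rows the groups did not overlap.

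Both subunits took part, with 22 of 56 small and 25 of 73 large subunit rows called, and 0 of 5 stalk rows and 0 of 4 paralogs. Rplp0.L was at 112, 123, 61 and 101 in flowthrough, against 91, 119, 78 and 93 in total RNA, and rps6.L at 133, 178, 84 and 155 against 137, 201, 122 and 97. Both copies were called in 8 of 55 pairs (rps13, rps14, rps27, rps28p9, rpl23a, rpl24, rpl29 and rpl36) and 1 copy in 21. The share over all pairs is not given here, so these counts do not set ribosomal protein pairs apart from others. In the same comparison 38 of 145 respiratory chain rows and 16 of 100 mitochondrial ribosomal protein rows were called lower, with medians of -0.77 and -0.55, and 6 of 109 assembly factor rows, with a median of -0.18. Whether the difference follows transcript length was not tested, since transcript lengths were not used here.

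**Figure D5:**
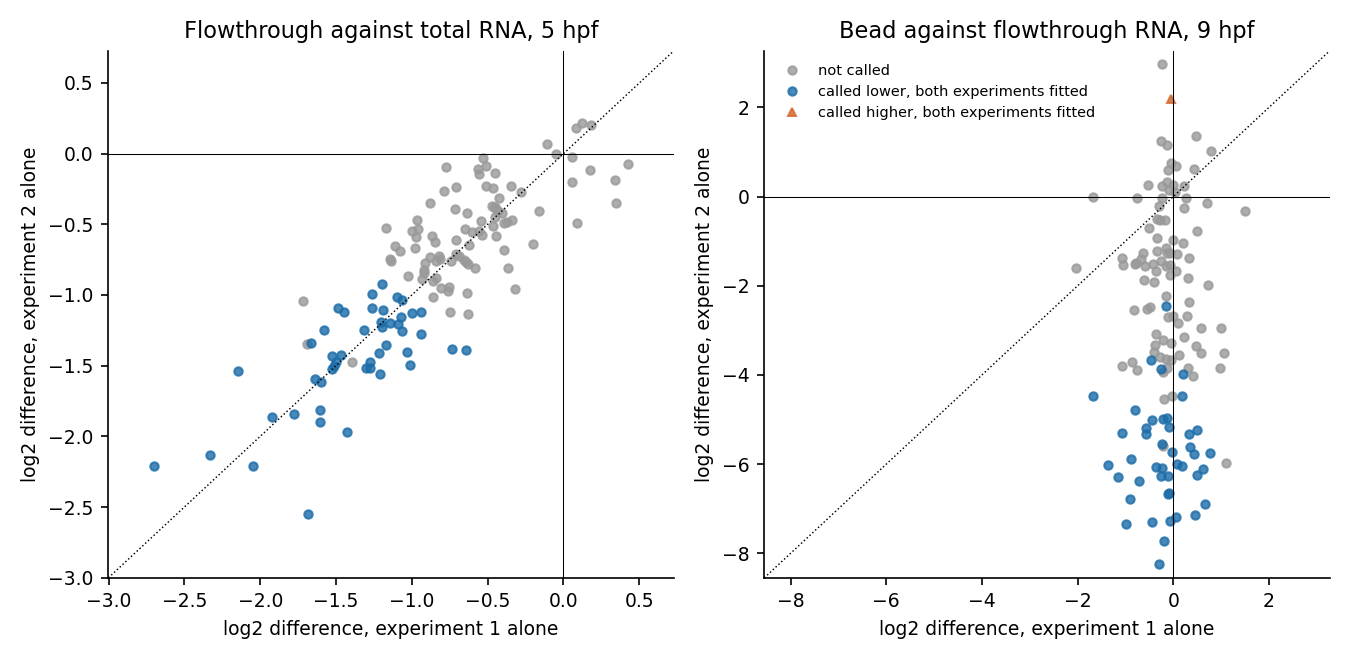
Log2 difference of each ribosomal protein row in experiment 2 alone (vertical axis) against experiment 1 alone (horizontal axis), for flowthrough against total RNA at 5 hpf (left) and bead against flowthrough RNA at 9 hpf (right). Each point is a row, blue where called lower and orange where called higher with both experiments fitted, and the dotted line marks equal values; on the left the blue points are below 0 in both experiments, on the right they are spread about 0 in experiment 1 and lie below -2 in experiment 2.

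Ribosomal protein RNA made up less of bead RNA than of flowthrough RNA, and the size of the difference was not the same in the 2 experiments. At 5 hpf the rows summed to 0.229% ± 0.0599 of the column total on beads and 0.319% ± 0.0317 in flowthrough (SD, n = 4 each), and at 9 hpf to 0.184% ± 0.0702 on beads and 0.279% ± 0.0258 in flowthrough. The column totals themselves differed: in experiment 2 at 9 hpf they were 11545777 and 15200969 on beads, against 7983988 and 8090104 in flowthrough. The summed values there were 16574 and 16415 on beads, against 19366 and 22601 in flowthrough. The shares therefore take in the larger bead totals as well. At 5 hpf 7 of 138 rows were lower on beads (1.47% of all genes), with a median of -0.71 against -0.28 for all genes. They were rpl13.L, rps16.L, rps16.S, both rps12.L rows, rpl22l1.L and rps27a.L. Several were low in flowthrough as well, with means at 5 hpf of 7.25 for rpl22l1.L and 18.0 for rps12.L_gene46668. Those of rps16.S, rps12.L_gene34753 and rps16.L were 32.75, 34.25 and 70.25. In experiment 1 alone 0 rows were called lower (0.0274% of all genes) and 0 higher (0.0776% of all genes). There 32 had an unadjusted p under 0.05, and the median was -0.35, against 0 for all genes. In experiment 2 alone 4 were lower (1.34% of all genes) and 1 was higher (1.4% of all genes), with a median of -1.20 against -0.51. Rpl13.L shows the split: it was at 61, 69, 0 and 0 on beads, against 122, 142, 115 and 113 in flowthrough. Rps27a.L was the one called row above 0 in all 4 bead libraries, at 303, 506, 122 and 167, against 498, 580, 440 and 537 in flowthrough (-1.11 ± 0.25 SE, adjusted p = 0.00549, limma), with overlap between the groups.

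At 9 hpf 44 of 138 rows were lower on beads (18.9% of all genes) and 1 was higher (9.35% of all genes), with a median of -1.45 against -0.69. Experiment 1 alone called 0 rows lower (0.37% of all genes), with a median of -0.14 against 0.02 for all genes. There 23 rows had an unadjusted p under 0.05. Experiment 2 alone called 41 rows lower (18.8% of all genes), with a median of -2.95 against -1.5 for all genes. Both experiment 2 bead libraries at 9 hpf held a value of 0 for 30 of the 44 rows, 1 of them for 10 rows and neither for 4. In experiment 1 the difference of these 44 rows ran from -1.69 to 0.76 and passed 2-fold lower in 4. The 6 rows with the largest fitted difference, rps26.L, rps15.S, rpl10.S, rps10.L, rpl22.S and rpl34.L, were all at 0 in both of those libraries. Rps26.L, a protein at the mRNA exit of the small subunit, was at 314, 203, 0 and 0 on beads, against 382, 253, 291 and 317 in flowthrough. No fold is given against values listed at 0.

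The row that was higher on beads was rps3.L, a protein at the mRNA entry site. It was at 490, 649, 2288 and 1826 on beads at 9 hpf, against 465, 728, 495 and 399 in flowthrough (1.08 ± 0.20 SE, adjusted p = 7.65e-05, limma). It was called in experiment 2 alone (adjusted p = 2.85e-04) and was -0.05 in experiment 1 alone, where rpl37.L was the 1 row called higher. On beads at 5 hpf it was at 296, 438, 782 and 1164, against 344, 486, 281 and 335 in flowthrough. Its S copy was not called, at 80, 99, 166 and 451 on beads at 9 hpf, against 103, 111, 101 and 132 in flowthrough.

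The difference between experiments was tested in itself, over all 5 times. The fit counted the 5 times of a clutch as separate libraries, with 2 clutches in each experiment. Its p-values and counts therefore do not measure the spread between clutches. The bead minus flowthrough difference was lower in experiment 2 than in experiment 1 for 73 of 138 rows (33.7% of all genes) and higher for 2 (4.6% of all genes), with a median of -2.08 against -1.27 for all genes. The largest fitted values were those of rps16.L, rpl10.S, rps16.S, rpl8.L, rpl13.L and rpl26.S, each at 0 in both bead libraries of experiment 2 at 9 hpf, and the 2 higher rows were rps3.L (1.86 ± 0.18 SE, adjusted p = 2.71e-10, limma) and rps12.S (1.56 ± 0.36, adjusted p = 9.32e-04). The numbers of genes and of ribosomal protein rows above 0 on beads, given above, moved with this split, and their part in it was not tested.

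No ribosomal protein row was called higher in bead RNA at 9 hpf against 5 hpf. On beads 0 of 137 rows rose (5.83% of all genes) and 0 fell (1.43% of all genes) at 9 against 5 hpf, with 14 at an unadjusted p under 0.05. The intervals of this fit were wide for many rows, as for rpl10.L at -0.862 (95% interval -3.29 to 1.56). A row not called is therefore not shown to be unchanged. Experiment 1 alone called 0 of 137 rows higher (8.3% of all genes) and 0 lower (1.72% of all genes), with 13 at an unadjusted p under 0.05. The median was -0.86 over both experiments, 0.04 in experiment 1 and -1.82 in experiment 2, against -0.33, 0 and -0.59 for all genes. With quantile normalization over both experiments it was -0.16, against -0.22 for all genes. In the same libraries 16 of 20 zygotic genes rose. The bead minus flowthrough difference changed from 5 to 9 hpf for 0 rows upward (4.6% of all genes) and 0 downward (0.162% of all genes), with 9 at an unadjusted p under 0.05. In the fit over both experiments rps3.L had the only adjusted p under 0.05 on beads, 0.87 higher on the log2 scale at 9 hpf. On beads in experiment 1 alone rps3.L was at 0.646 (adjusted p = 0.0743, limma). There rps27.L at 0.886 and rpl4.L at -0.602 had adjusted p = 0.0212 and 0.0231 (limma). The bead minus flowthrough difference of rps3.L changed by 0.352 from 5 to 9 hpf (adjusted p = 0.563, limma). Copy ratios on beads against flowthrough at 9 hpf were called toward L for rps15 (5.33% of all pairs) and toward S for rpl6 and rpl29 (4.1% of all pairs), of 54 pairs. Each rests on a copy listed at or near 0 on beads of experiment 2: rps15.S was at 76, 75, 0 and 0 and rpl6.L at 299, 424, 5 and 4. Rpl29.L was at 60, 81, 0 and 0 while rpl29.S was at 68, 85, 59 and 121.

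In flowthrough RNA 3 of 138 rows fell at 9 against 5 hpf (3.94% of all genes) and 0 rose (0.202% of all genes). At any size 20 fell (12.9% of all genes) and 2 rose (6.32% of all genes), and 46 had an unadjusted p under 0.05. The median was -0.16 against -0.04 for all genes. With the clutch as a block 6 rows fell (5.42% of all genes), the added ones being rpl35a.S_gene44695, rps27l.L and rps19bp1.L. At any size 44 then fell (20.9% of all genes) and 11 rose (13.5% of all genes). Experiment 1 alone called 0 rows lower by 2-fold (1.36% of all genes), with 13 at an unadjusted p under 0.05, and experiment 2 alone 1 (1.71% of all genes).

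Both copies of rpl29, a large subunit protein particular to eukaryotes, led this list. Rpl29.L was at 62, 61, 59 and 72 in flowthrough at 9 hpf, against 131, 180, 139 and 153 at 5 hpf (-1.23 ± 0.25 SE, adjusted p = 0.00161, limma). Rpl29.S was at 103, 77, 78 and 66 at 9 hpf, against 164, 182, 157 and 154 at 5 hpf (-1.03 ± 0.14, adjusted p = 2.27e-05). Rpl34.S was at 78, 124, 67 and 108 at 9 hpf, against 180, 224, 184 and 185 at 5 hpf (-1.07 ± 0.25, adjusted p = 0.00435). The groups did not overlap in any of the 3 rows. In total RNA rpl29.S was at 257 and 266 at 9 hpf, against 371, 465, 321 and 343 at 5 hpf (-0.67 ± 0.13, adjusted p = 0.00563), and its eggs were at 638 and 618, so its level was highest in eggs and lowest at 9 hpf. The 2 rows that rose without the block were rps3.L by 0.52, at 465, 728, 495 and 399 at 9 hpf, against 344, 486, 281 and 335 at 5 hpf, and rps13.S by 0.28, at 412, 414, 234 and 255 at 9 hpf, against 334, 350, 196 and 203 at 5 hpf. Fau.S, which encodes Rps30 fused to a ubiquitin-like protein and lies outside the name rule, rose by 0.77 (adjusted p = 0.0185). Its L copy did not rise, with a change of -0.325 (adjusted p = 0.605, limma).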

How the data were processed

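The authors deposited 1 table of 50489 rows by 54 libraries. Its values are a score: DESeq2-normalised and rounded whole numbers, per the submitters' processing notes, which also name Salmon 0.12.0. The genome build is not given in the sources used here. Since they are not counts, the planned count test was replaced by limma-trend (limma 3.58.1, statmod 1.5.0, R 4.3.3; trended, robust) on log2(value + 1), which understates changes of low rows. Rows with a value of at least 10 in as many libraries as the smallest group were tested, with a term for experiment, all groups of a fraction sharing 1 spread, and Benjamini-Hochberg adjustment over all rows tested. Without the block, libraries of 1 clutch counted as separate, so p-values of these fits do not fully measure the spread between clutches. The fits were also run on simulated data with 1 spread for all genes and no difference between experiments. Such data do not stand for the bead libraries, whose 2 experiments differed. Members, lists and comparisons were chosen with earlier results of these data known. Named rows were the 5 highest and 5 lowest in eggs, up to 6 called per comparison and direction by size, the extreme and changed pairs, and a list of well-known proteins. Other names were chosen after their values were seen. Some items that this rule would name are not reported here. Clutch numbers pair the embryo libraries by the series' design text. Deviations of same-numbered libraries from their group correlated at 0.07 to 0.64, to which a difference between experiments can add. Centred on group and experiment, they correlated at 0.07 to 0.7. Eggs carry no such pairing. The table held 1 column of no sample, which was empty. Of 144 names, 140 match RefSeq symbols (Xenopus_laevis_v10.1). Sequences and transcript lengths were not used here. Figures used matplotlib.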

Additional observations from a re-analysis of the deposited data

Results flagged for a closer look

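Samples far from the others of their group were sought in 59 groups of 4 libraries (the summed share of each group and the named rows), where chance alone marks about 1 in 20, and 2 were found. In flowthrough RNA at 5 hpf rpl34.S was at 224 in replicate 2, against 180, 184 and 185 in the others. In flowthrough RNA at 9 hpf rps15.S was at 140 in replicate 2, against 160, 160 and 164.

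The bead minus flowthrough difference was not the same in the 2 experiments by a test of that difference itself (limma, experiment by fraction): 73 of 138 ribosomal protein rows were lower (33.7% of all genes) and 2 were higher (4.6% of all genes) in experiment 2 than in experiment 1. This test counted the times of a clutch as separate libraries, so it does not measure the spread between clutches.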

How the results depend on the processing

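The counts of rows called moved with the settings. For total RNA at 5 hpf against eggs, where 4 rows fell, the count was 2 with no filter, 7 at any size of change and 0 in experiment 2 alone, and leaving out 1 library gave 0 to 2. For total RNA at 9 against 5 hpf, where 1 fell, it was 3 with equal column totals, 5 at any size, 4 with the replicate block, 3 with no experiment term and 0 in experiment 1 alone, and leaving out 1 library gave 0 to 2. It was 0 without replicate 2 at 5 hpf or either library at 9 hpf, and 2 without replicate 1 at 5 hpf. For beads at 9 against 5 hpf, where 0 were called, 1 fell with quantile normalization, 3 fell with equal totals and 1 rose at any size. Leaving out 1 library gave 0 to 1 higher and 0 to 4 lower, the most without replicate 2 at 9 hpf. For flowthrough at 9 against 5 hpf, where 3 fell, the count was 1 with quantile normalization, 5 with equal totals, 20 at any size with 2 higher, 6 with the replicate block, 0 in experiment 1 alone and 1 in experiment 2 alone. Leaving out 1 library gave 3 to 5.

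For beads against flowthrough at 5 hpf, where 7 were lower, the count was 13 with a pseudocount of 5, 0 with no experiment term, 0 in experiment 1 alone and 4 in experiment 2 alone. There 1 row was higher, as at any size. Leaving out 1 library gave 5 to 14, the most without bead replicate 3. At 9 hpf, where 44 were lower and 1 higher, quantile normalization gave 24 and 0, no experiment term 9 and 0, equal totals 0 higher, any size 2 higher and experiment 1 alone 0 lower. Leaving out 1 library gave 0 to 2 higher, with 0 without flowthrough replicate 1. The difference of rps3.L turned to -0.045 in experiment 1 alone. For the change of the bead minus flowthrough difference, 1 was lower in experiment 2 alone, and leaving out 1 library gave 0 to 3. Between experiments, quantile normalization gave 9 higher and 36 lower. Flowthrough against total RNA gave 90 at any size. Ratios of L to S in total RNA at 9 against 5 hpf were called for 6 pairs with the replicate block, and for 0 to 1 with 1 library left out. On beads against flowthrough at 9 hpf they were called for 1 pair in experiment 1 alone and for 1 to 6 with 1 library left out, and that of rpl29 turned to 0.40 in experiment 1 alone. The causes were not tested.

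Scaling moved the median of all genes by over 0.1 on the log2 scale in 7 of the comparisons. The largest shift was in the difference between experiments, where that median was -0.07 with quantile normalization and -1.27 as deposited, and the members' median was -0.71 and -2.08. At any size the replicate block gave 32 lower and 10 higher in total RNA and 44 and 11 in flowthrough at 9 against 5 hpf. It moved no other count of 2-fold calls, and not that of bead ratios, by over 1.5 times, and no block could be used for eggs. Alternatives for flowthrough against total RNA and for the difference between experiments were chosen after seeing the data. Division by protein length was not run. Depth is unknown, so values listed at 0 have no floor.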
